A study of Mus musculus with 12 samples.

Results

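Among the 20409 protein-coding genes counted in screens of tagged endogenous proteins in mouse embryonic stem (mES) cells, 35 carry a numbered Zfp symbol (Zfp, a number and at most a letter from a to d) and lie on chromosome 13. A gene was placed on the chromosome where most of its insertions in unsorted cells were mapped. The tables list 390 numbered Zfp genes in all, with 91 on chromosome 7, 44 on chromosome 17, 206 on other chromosomes and 14 not placed, for want of an insertion in unsorted cells. The insertions came from ORFtag, in which a retroviral cassette with the PGK promoter, a neomycin resistance gene, an IRES, a tag and a splice donor integrates in the genome. Transcripts from the cassette splice to the next exon downstream that has a splice acceptor, so that the tag is fused to the rest of that gene's protein.

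The reporter cells were diploid mES cells derived from haploid HMSc2 cells, and the labels call the reporter line of each screen clonal. The tag of the activator screen was TetR, which binds TetO sites beside a GFP reporter with a minimal promoter, and cells were sorted for a gain of GFP. In the repressor screen TetR fusions bound TetO sites beside an active PGK promoter driving GFP, and cells with reduced GFP were sorted. The PTGR screen, for regulators that act on mRNA after transcription, used the λN peptide, which binds boxB sites in the reporter mRNA, and cells sorted repeatedly for low GFP were sorted once more for regained GFP after Cre had removed the boxB sites. Unsorted cells of each screen, selected with G418 for the cassette, gave the background. Each of the 6 groups held 2 libraries. The lists hold insertion positions and no expression values, so the cell type could not be checked from markers.

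The products of most numbered Zfp genes are KRAB zinc finger proteins. Their tandem C2H2 zinc fingers bind DNA, often at transposable elements, and their N-terminal KRAB domain recruits the co-repressor Trim28 (KAP1), which in turn brings the H3K9 methyltransferase Setdb1 and heterochromatin protein 1. The genes lie in clusters that grew by duplication, and the KRAB A box is commonly encoded by a short exon of its own near the 5′ end of the gene. A tag spliced to that exon would be joined to the KRAB domain and the zinc fingers.

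That gene structure was visible in the annotation (GENCODE vM21, assembly GRCm38, which is mm10). All 35 genes were found there, and each of the 6178 sense and reversed insertions assigned to them pointed at an annotated exon edge. In 25 of the 35 genes, the exon that received most background insertions was 127 bases long. In these 25 genes, a KRAB-like stretch began 2 to 6 residues after that exon edge. The 127-base exons of the 25 genes began with 17 different runs of 20 bases, and the most common run was shared by 6 genes. The acceptors below are those of the genes the results turn on, from the mm10 reference, with 10 intron bases in lower case and the first 20 exon bases in capitals. They show which exon start the tag was joined to, and that Zfp459, Zfp65 and Zfp748, whose sorted counts differ widely below, share the same first exon bases.

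Zfp808 (chr13:62169432-62169461, plus strand): gatgctctagAATGCAGTGACTTATAGGGA
Zfp934 (chr13:62492915-62492944, minus strand): gatgctctagAATGCAGTGACTTATGAGGA
Zfp456 (chr13:67372858-67372887, minus strand): tttatttcagGAAATGTTGTCCTTCTGGGA
Zfp459 (chr13:67413941-67413970, minus strand): ttcatttcagGAAATGCTGTCATTCAGGGA
Zfp65 (chr13:67710988-67711017, minus strand): tttttctcagGAAATGCTGTCATTCAGGGA
Zfp748 (chr13:67546732-67546761, minus strand): tttatttcagGAAATGCTGTCATTCAGGGA
Zfp85 (chr13:67752495-67752524, minus strand): tctatttcagGACCTTCTGTCATTCACAGA
Zfp493 (chr13:67783780-67783809, plus strand): ttaatttcagAAACTGCTGTCATTCAGAGA
Zfp273 (chr13:67822231-67822260, plus strand): tctatttcagGACCCTCTGTCATTCACAGA
Zfp825 (chr13:74484003-74484032, minus strand): tgttgtgcagATCTTCATCCACATCTTGAA
Zfp72 (chr13:74378847-74378876, minus strand): tcctttttagGTATGAAATATCAAAGCCTC
Zfp184 (chr13:21945546-21945575, plus strand): tttcttgtagCAATCCAAACTTCCCCTGTG

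Most of the 35 genes stood close together. The 23 genes from Zfp712 to Zfp273 lay between 67038596 and 67827002. Zfp808 and Zfp934 were neighbours near 62 Mb, Zfp72 and Zfp825 near 74 Mb, and the remaining 8 genes were scattered along the chromosome.

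The 12 libraries held between 14705 and 233799 insertions within 200 kb of the assigned exon, each position counted once per library. The repressor sorted libraries held 22266 and 15204, so genes with few insertions had wide intervals. A fold below is the share of insertions in both sorted libraries over the share in all 6 unsorted libraries (1022126 insertions), with an exact 95% interval that covers counting error only. Genes with at least 3 sorted insertions were compared with the background by Fisher's exact test (one-sided, higher in sorted), and Benjamini-Hochberg adjustment ran over all of them. Hits are those whose adjusted p was below 0.001 at a log2 odds ratio of 1 or more. The lists do not give the number of cells or reads behind an insertion. The repressor sorted replicates listed many of the same positions. Of the 587 and 515 positions at the 35 genes, 149 were in both, 25.4% and 28.9%, against 18.8% and 27.5% over all genes. Over all genes the sorted replicates of the activator screen shared 2.21% and 2.61% of their positions and those of the PTGR screen 0.648% and 0.674%, so the repressor sorted replicates were far less distinct from each other. The part of these shared positions in the results was not tested beyond leaving them out. Where these positions were left out, 15 of the 16 genes called below were called again, and Zfp65 was not.

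Selection for reduced GFP raised the share of insertions at these genes. Together they took 264 and 339 per 10000 insertions in the repressor sorted replicates, against 15.5 to 29.4 in the 6 unsorted libraries, 16.7 and 13.6 in the activator sorted replicates and 15.3 and 17.2 in the PTGR sorted replicates. In the repressor screen 16 of the 35 genes were hits (45.7%), where 0.941% of all 20409 genes were. Among genes tested, 16 of 20 members were hits, where 8.18% of all 2346 were. Since a gene entered the test only with 3 sorted insertions, the members are counted in full: 20 reached that number, 5 had 1 or 2 sorted insertions and 10 had 0. Of the 1102 sorted insertions at the 35 genes, 97.7% lay at the 16 hits. A higher share in sorted cells than in the background was seen at 60% of the 35 genes and at 15.2% of the 18268 genes with a background insertion. Of all 20409 genes, 13444 had 0 repressor sorted insertions and so could not have a higher share.

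Zfp825 had the most sorted insertions, with 242 and 234, which ranked it 9 among all genes. Its unsorted counts were 93 and 80 in the repressor screen, 20 and 12 in the activator screen and 26 and 6 in the PTGR screen. It was 54.8-fold higher in sorted cells (46.8 to 64.3, log2 odds ratio 5.79 ± 0.11, SE). Both sorted replicates stood far above the 6 unsorted libraries, among which the repressor pair, at 5.34 and 4.52 per 10000, was higher than the other 4, at 0.578 to 1.14. Of its 411 sorted positions, 70 were also listed in the repressor unsorted libraries. With the screen's own unsorted pair as the background the fold was 25.8 (21.6 to 30.9, log2 odds ratio 4.71). The same held in weaker form for the 16 hits without Zfp825, which took 10.2 and 8.70 per 10000 in the repressor unsorted libraries and 5.36 to 6.98 in the other 4 unsorted libraries. The part of these values in the result was not tested, but all 16 genes were called against the screen's own unsorted libraries. On that background the fold moved by over 1.5 times at 6 hits, to 25.8 at Zfp825, 23.3 at Zfp808, 20.8 at Zfp874b, 12.3 at Zfp934, 32.8 at Zfp456 and 15.0 at Zfp953.

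Zfp459, a short KRAB protein of 267 residues with 3 zinc finger motifs, counted 68 and 67 insertions in the sorted replicates and 75 in the background. It was 49.1-fold higher (36.8 to 66.0), with a log2 odds ratio of 5.62 ± 0.21. Zfp808, with 753 residues and 22 motifs the hit with the most zinc fingers, had 60 and 57 sorted insertions against 76, and was 42.0-fold higher (31.2 to 56.8). Its neighbour Zfp934, whose acceptor window differs from that of Zfp808 only near the end, had 21 and 13 against 47, a fold of 19.7 (12.3 to 31.3). The intervals of Zfp825, Zfp459 and Zfp808 overlapped. That of Zfp934 lay below those of Zfp825 and Zfp459 and reached the lower end of that of Zfp808.

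In the cluster from Zfp712 to Zfp273, 12 of the 23 genes were hits. Zfp493 counted 52 and 29 in sorted cells against 118 unsorted, a fold of 18.7 (13.9 to 25.1). Zfp85 had 26 and 26 against 194, a fold of 7.31 (5.28 to 9.98), and Zfp273 had 16 and 14 against 60, a fold of 13.6 (8.49 to 21.5). Zfp874a and Zfp874b, which both encode 447 residues with 10 zinc finger motifs, had 10 and 11 against 22, and 20 and 11 against 23, with folds of 26.0 (13.6 to 49.6) and 36.8 (20.8 to 66.0). Their intervals overlapped, so a difference between the pair was not detectable at this depth. Outside the cluster, Zfp72 had 17 and 17 against 56, a fold of 16.6 (10.5 to 25.8).

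The other 6 hits had 5 to 16 sorted insertions each. Zfp953 had 11 and 5 sorted insertions and a background of 18, Zfp456 had 8 and 6 against 7, Zfp708 had 7 and 4 against 9, Zfp65 had 7 and 5 against 51, Zfp455 had 6 and 2 against 6, and Zfp429 had 3 and 2 against 4. Their folds ran from 6.42 for Zfp65 (3.12 to 12.2) to 54.6 for Zfp456 (20.6 to 159.7). Zfp429, Zfp455 and Zfp456 began their 127-base exon with the same 20 bases, and all 3 were hits. All 16 hits had both sorted replicates above all 6 unsorted libraries in share, as the calling favours. The log2 odds ratios of the 16 hits ran from 2.68 to 5.79 with a median of 4.88, and the median of all 192 hits was 4.30. By Fisher's exact test the adjusted p was 8.10e-05 at Zfp429, the weakest of the 16, 6.60e-24 at Zfp85, 4.80e-115 at Zfp808, 7.44e-138 at Zfp459 and too small to be computed at Zfp825. These p-values come from counts summed over replicates, so they leave out the spread between libraries.

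**Figure D1:**
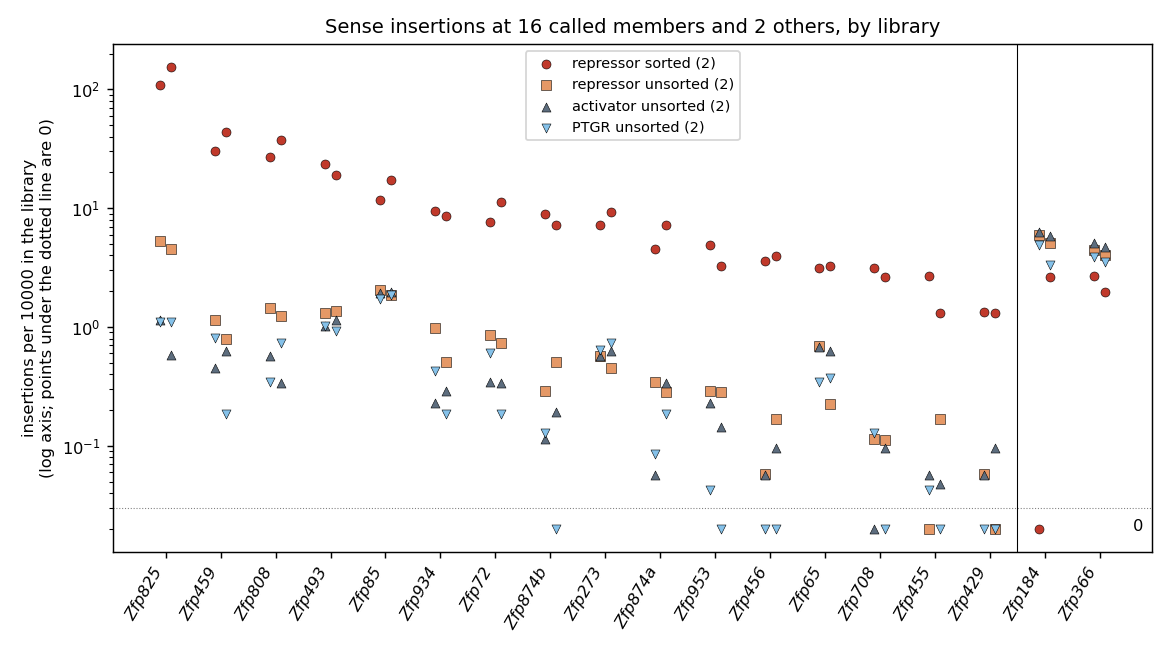
Sense insertions per 10000 insertions of the library (log axis, each point 1 library, points under the dotted line are 0) at the 16 hits in order of sorted insertions, and at Zfp184 and Zfp366, the members with the most background insertions. Red points are the 2 repressor sorted libraries, which lie above all 6 unsorted libraries at the 16 hits and below them at Zfp184 and Zfp366.

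Each sorted replicate gave most of the calls alone. With sorted replicate 1, 14 of the 35 genes were called, beside 188 of all 20409 genes (14.2% of the 1322 tested). With sorted replicate 2, 13 were called, beside 145 of all genes (18.2% of the 796 tested). Zfp65 was called in neither. Zfp429 was not called in replicate 1, and Zfp429 and Zfp455 had fewer than 3 insertions in replicate 2. The spread between libraries was taken into account with edgeR's quasi-likelihood test (Benjamini-Hochberg adjusted), on 2 sorted against 2 unsorted libraries of the screen. By this test 8 of the 29 members with enough insertions rose at least 2-fold with an adjusted p below 0.05, where 0.687% of 12809 genes did. These 8 were Zfp825, Zfp459, Zfp808, Zfp493, Zfp85, Zfp273, Zfp72 and Zfp874a, with adjusted p from 0.00373 for Zfp825 to 0.0380 for Zfp874a. The edgeR log2 fold change had a median of 2.86 over the 29 members and -2.13 over all genes tested. Many genes had 0 sorted insertions, where the fitted value depends on the prior count. The median over all genes should thus not be read as a measured fall. With the adjusted p required to be below 0.001, edgeR called 0 genes of any kind in this screen and DESeq2 called 15 members. The unadjusted edgeR p was below 0.05 at 15 members that were at least 2-fold higher and at 1 that was lower.

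The genes that were not called differed in how much the data could say about them. Zfp184, a KRAB protein with 19 zinc finger motifs, had the most background insertions of the 35 genes. There were 104 and 90 insertions in the repressor unsorted libraries, 110 and 120 in the activator ones and 114 and 18 in the PTGR ones, but 0 and 4 in the repressor sorted libraries. Its fold was 0.196 (0.0533 to 0.505). Zfp366, which encodes the transcriptional regulator DC-SCRIPT, counted 6 and 3 in sorted cells against 445 unsorted, a fold of 0.552 (0.251 to 1.06). Zfp184 and Zfp366 together held 43.2% of the 2315 background insertions at the 35 genes. The one-sided test did not ask whether a gene was lower, and by edgeR neither gene differed at an adjusted p below 0.05. For Zfp169, with 1 and 1 against 79, the interval of the fold ended at 2.58, and for Zfp369, the neurotrophin receptor interacting factor NRIF, with 1 and 2 against 31, it ended at 8.46. Distant insertions made up most of the background at Zfp184, Zfp366 and Zfp169, with medians of 77.8, 134 and 45.0 kb. Within 20 kb of the exon lay 4.14%, 0.674% and 7.6% of it. The folds of these genes thus say little of insertions near the exon. Among the hits, Zfp808 and Zfp72 also had little background this near, 1.32% and 8.93%. The part of distance in these values was not tested.

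Where 0 sorted insertions were found, 3 counts set the limit, with the background count taken as exact. The exact 95% intervals of the fold ended higher. Their upper ends were 3.23 for Zfp759, 4.53 for Zfp346, 8.22 for Zfp712 and 66.0 for Zfp87 and Zfp729b. Zfp759 had 33 background insertions, so by 3 counts its 0 of 37470 sorted insertions set a limit of 2.48-fold. Of these 33, only 1 lay within 20 kb of the exon and the median distance was 64.1 kb. The value for Zfp759 thus bounds mostly distant insertions. The limit was 3.41-fold for Zfp346, which encodes an RNA-binding zinc finger protein, and 5.85-fold for Zfp712. For Zfp322a and Zfp729a it was 8.18-fold, for Zfp131, a BTB-domain zinc finger gene, 11.7-fold, for Zfp457 13.6-fold, for Zfp595 16.4-fold, and for Zfp87 and Zfp729b, with 3 background insertions each, 27.3-fold. By this limit, 0 insertions did not exclude a rise of the size seen at Zfp65 or Zfp85 at Zfp322a, Zfp729a, Zfp131, Zfp457, Zfp595, Zfp87 and Zfp729b. By the exact interval, such a rise was not excluded at Zfp712 either. The limit says what a 0 allows, and not which rise the test could have called. Zfp58 had 3 and 0 sorted insertions and a background of 5, with an unadjusted p of 0.00217 and an adjusted p of 0.0220 by Fisher's exact test, and was not called. Zfp367, Zfp458, Zfp738 and Zfp748 had 1 sorted insertion each, and the intervals of their folds ended at 4.50, 21.9, 19.2 and 6.39.

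**Figure D2:**
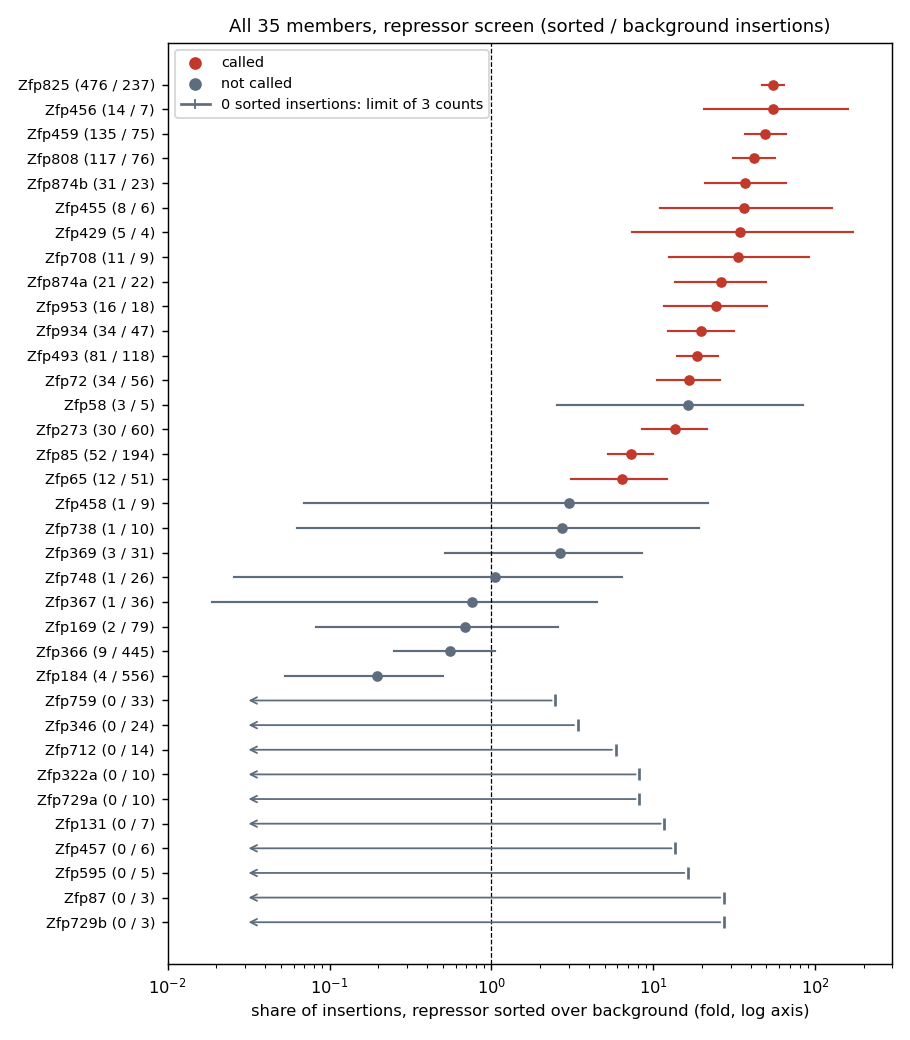
Share of insertions in the repressor sorted libraries over the background for all 35 genes (fold, log axis), with exact 95% intervals, and the numbers of sorted and background insertions beside each name. Red genes are the 16 hits. For the 10 genes with 0 sorted insertions the bar marks the fold at 3 counts, from 2.48 for Zfp759 to 27.3 for Zfp87 and Zfp729b. This limit takes the background count as exact, and the exact intervals end higher.

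The annotated proteins were compared between the hits and the other members as a description. A KRAB-like stretch, found by alignment to that of Zfp825, was present in the annotated proteins of 29 of the 35 genes, with scores of at least 85 against at most 38 in the rest. Zfp72 scored 38 in its annotated protein and 97 when its transcript was read from the acceptor in all frames. By the annotated proteins, as planned, 15 of the 29 genes with a KRAB-like stretch were hits and 1 of the 6 without, Zfp72. The reading in all frames was outside the plan and changed the class of Zfp72 alone. With Zfp72 counted, 16 of 30 genes with a KRAB-like stretch were hits and 0 of the 5 without were. These 5 were Zfp131, Zfp322a, Zfp346, Zfp366 and Zfp367. Of the 25 genes with the 127-base exon, 14 were hits. Of the 6 genes that began this exon with the bases shown for Zfp459, Zfp65 and Zfp748, only Zfp459 and Zfp65 were hits, and the other 4 had 3 to 26 background insertions. The number of zinc finger motifs had a median of 10 in the 16 hits (0 to 22) and 18 in the other 19 genes. Zfp934 was the hit without a motif. The annotated protein read for its main acceptor has 100 residues, with a KRAB-like stretch from residue 5. Its sorted insertions went to that acceptor in 88.2% of cases and its background insertions in 66.0%. In 14 of the 16 hits, 100% of the sorted insertions pointed to the main acceptor, and at least 97.4% of the annotated coding sequence followed it in all 16.

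The distance from the insertion to the exon differed between the hits. At Zfp808 the cassette lay far upstream. The median distance was 91.5 kb in sorted and 91.6 kb in unsorted cells, 94.9% of the sorted insertions lay beyond 50 kb, and 116 of 117 lay upstream of the annotated gene. Of its 103 sorted positions, 59 fell between 62075950 and 62080424, 89.0 to 93.5 kb before the exon and around 52.0 kb before the annotated gene start. Both sorted replicates held insertions in that stretch, 37 and 34, as did the repressor unsorted libraries, with 15 and 15, while the other 4 unsorted libraries held 0 to 4. The nearest annotated transcript start was that of the lincRNA Gm40977, 19.8 kb away. A further 18 positions lay 63.1 to 78.1 kb before the exon and had the start of Gm40977 within 0.538 kb of their median. With insertions counted only within 50 kb, Zfp808 had a log2 odds ratio of 3.27 and was no longer called, and Zfp72 had no sorted insertion left.

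Zfp72 and Zfp825 had distant insertions as well. All 34 sorted insertions at Zfp72 lay upstream of the gene, at a median of 64.3 kb in both replicates. Of their 31 positions, 24 lay 55.6 to 66.6 kb before the exon, and the middle of that stretch was 0.866 kb from a start of the lincRNA E430024I08Rik. The medians of the repressor unsorted libraries, 64.8 and 64.3 kb, were near those of sorted cells, and those of the other 4 unsorted libraries, with 1 to 14 insertions each, ran from 21.4 to 89.8 kb. At Zfp825 the sorted insertions reached from 4.96 to 151 kb, with medians of 22.8 and 21.2 kb. Here too the repressor unsorted pair, at 20.2 and 20.2 kb, was near the sorted replicates, while the other 4 unsorted libraries, with 6 to 26 insertions, had medians of 44.9 to 79.4 kb. Against all 6 unsorted libraries, to which the repressor pair gave most insertions at Zfp825, the fold was 55.8 within 20 kb of the exon and 54.2 beyond. Against the repressor pair alone it was 21.8 and 29.2. The boundary of 20 kb was chosen after the distances were seen.

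At Zfp85 and Zfp493 the sorted insertions lay much closer to the exon than those of unsorted cells. At Zfp273 they also lay closer, but only slightly so beside the repressor unsorted pair. At Zfp85 the median distance was 3.65 and 3.58 kb in the sorted replicates and 46.7 to 78.0 kb in the 6 unsorted libraries, so the groups did not overlap. Within 20 kb there were 25 and 25 insertions in sorted cells and 35 in unsorted cells, a fold of 39.0, and beyond 20 kb it had 2 against 159, a fold of 0.343. The fold of 7.31 over all distances thus combined a high value near the exon with a low value far from it. At Zfp493 the medians were 5.05 and 7.17 kb in the sorted replicates and 28.1 to 56.3 kb in unsorted libraries, and the folds were 48.2 within and 8.68 beyond 20 kb. At Zfp273 the medians were 7.89 and 7.81 kb against 9.50 to 22.0 kb, with the repressor unsorted pair nearest, at 9.50 and 10.5 kb, and the folds were 24.6 and 2.73. Against the screen's own unsorted pair the folds within and beyond 20 kb were 36.1 and 0.335 at Zfp85, 41.4 and 7.50 at Zfp493 and 19.5 and 5.62 at Zfp273, so these kept their order. Zfp65 had folds of 10.7 and 2.92, and 10.5 and 3.51 against the own pair. At Zfp934 the folds were 26.4 and 8.02 against all 6 unsorted libraries but 12.4 and 11.7 against the own pair. Beyond 20 kb the own-pair fold rests on 5 sorted and 4 unsorted insertions. A split by distance at Zfp934 thus cannot be told on that background. The sorted insertions of Zfp459, Zfp455, Zfp708, Zfp874a, Zfp874b, Zfp429, Zfp456 and Zfp953 all lay within 20 kb, as did their background.

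**Figure D3:**
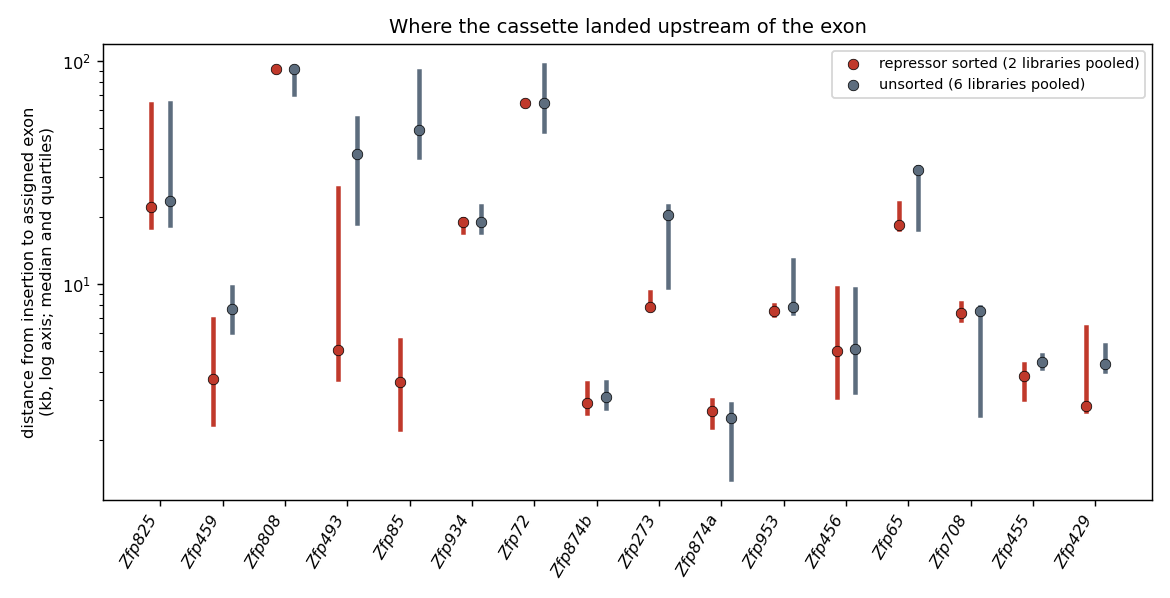
Distance from insertion to assigned exon (kb, log axis) at the 16 hits, as the median (point) and quartiles (bar) over the repressor sorted libraries (red) and the 6 unsorted libraries (grey). The medians are close at Zfp808 (91.5 and 91.6 kb) and at Zfp825 (22.0 and 23.4 kb, where most unsorted insertions are from the repressor screen), and lie far apart at Zfp85 (3.62 and 48.9 kb) and Zfp493 (5.06 and 38.0 kb).

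The insertions were also assigned with their strand reversed, as the study did to mark genes enriched on both strands. Of the 35 genes, 3 were called with reversed insertions in the repressor screen, beside 125 of all 20409 genes (5.61% of the 2229 tested). Zfp85 had 71 and 43 reversed sorted insertions, more than its 26 and 26 sense insertions, Zfp493 had 33 and 30, and Zfp759 had 7 and 5. Zfp85 and Zfp493 lie close to each other on opposite strands, as do Zfp759 and Zfp708. Of the 114 reversed insertions at Zfp85, 111 were sense insertions of other hits among the 35 genes, 81 at Zfp493 and 30 at Zfp273. Of the 63 at Zfp493, 62 were sense insertions of other hits, 50 of them at Zfp85. Of the 12 at Zfp759, which had 0 sense insertions in sorted cells, 11 were sense insertions of Zfp708. The study flagged its hits Zfp85 and Zfp493 in this screen as enriched for reversed insertions, and advises caution with such hits. The other 14 hits had 0 to 2 reversed insertions in sorted cells, Zfp825 1 and 1 beside 242 and 234 sense insertions.

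**Figure D4:**
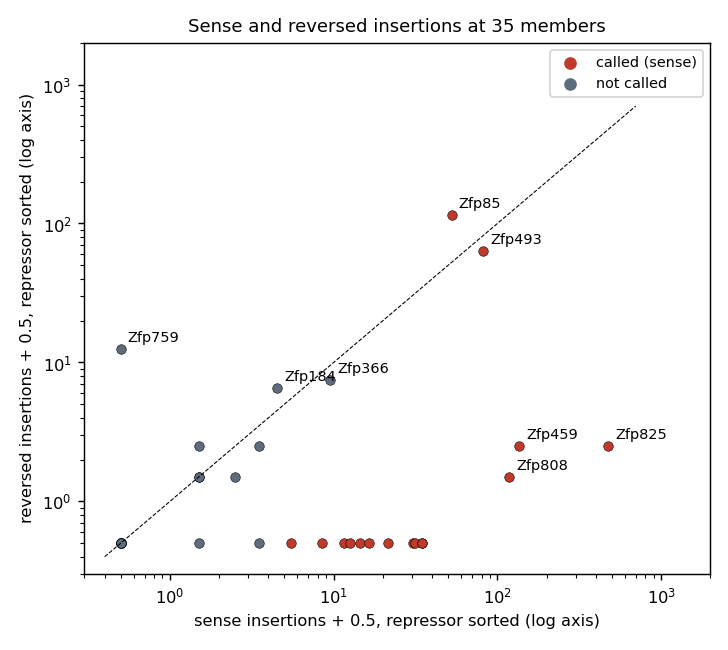
Sense against reversed insertions in the 2 repressor sorted libraries at the 35 genes (both log axes, 0.5 added so that 0 can be drawn, dashed line at equal numbers). Most hits (red) lie on or near the lower edge with 0 to 2 reversed insertions, while Zfp85 (114 reversed) and Zfp493 (63 reversed) lie near the line and Zfp759 has 12 reversed and 0 sense insertions.

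Neither of the other screens called any of these genes. In the activator screen 4.64% of the genes tested were called. There, 5 of the 35 genes had at least 3 sorted insertions, 20 had 0, and 0 of those tested had an unadjusted p below 0.05 by Fisher's exact test. The highest log2 odds ratio among the 5 was 1.01 at Zfp169, with 4 and 1 sorted insertions. Zfp595, under the minimum of 3 with 1 and 1 against 5, had a fold of 12.7 (1.21 to 77.8). In the PTGR screen 0.666% were called. There, 16 genes had at least 3 sorted insertions, 8 had 0, 0 of those tested had an unadjusted p below 0.05, and the highest log2 odds ratio was 1.51 at Zfp708, with 1 and 2. By edgeR and by DESeq2, 0 members were at least 2-fold higher in either screen even where the unadjusted p alone was required to be below 0.05. The 16 repressor hits took 6.23 per 10000 insertions in the activator sorted libraries and 6.11 in the PTGR sorted libraries, against 9.81 in the background and 287 in the repressor sorted libraries. Zfp825 had 1 and 0 insertions in the activator sorted libraries and 5 and 2 in the PTGR sorted libraries, folds of 0.134 (0.00339 to 0.756) and 0.253 (0.100 to 0.529) whose intervals lay below 1. That background includes the repressor unsorted pair, in which Zfp825 was high. Against each screen's own unsorted libraries the folds were 0.373 (0.00916 to 2.23) and 0.527 (0.196 to 1.22), with intervals that include 1. Zfp808 had 0 and 1 activator sorted insertions and 4 and 3 in the PTGR sorted libraries.

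The difference between screens was tested itself with edgeR on all 12 libraries. The sorted over unsorted change was higher in the repressor than in the activator screen at 7 of the 29 members tested, where 0.882% of all genes were at an adjusted p below 0.05, and higher than in the PTGR screen at 9, where 0.929% were. The same 7 genes, Zfp825, Zfp459, Zfp808, Zfp493, Zfp85, Zfp273 and Zfp72, passed against both screens, and Zfp65 and Zfp934 passed against the PTGR screen. The activator sorted libraries were small, and 9 of the 16 hits had 0 insertions in them. Against 3 counts over that group, the share of Zfp459 was 38.6-fold higher in repressor than in activator sorted cells. That of Zfp72 was 9.71-fold higher and that of Zfp429 1.43-fold. These values take the repressor count as exact, so they are not lower limits. At Zfp429 that count was 5, and a difference between the screens is not shown there.

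**Figure D5:**
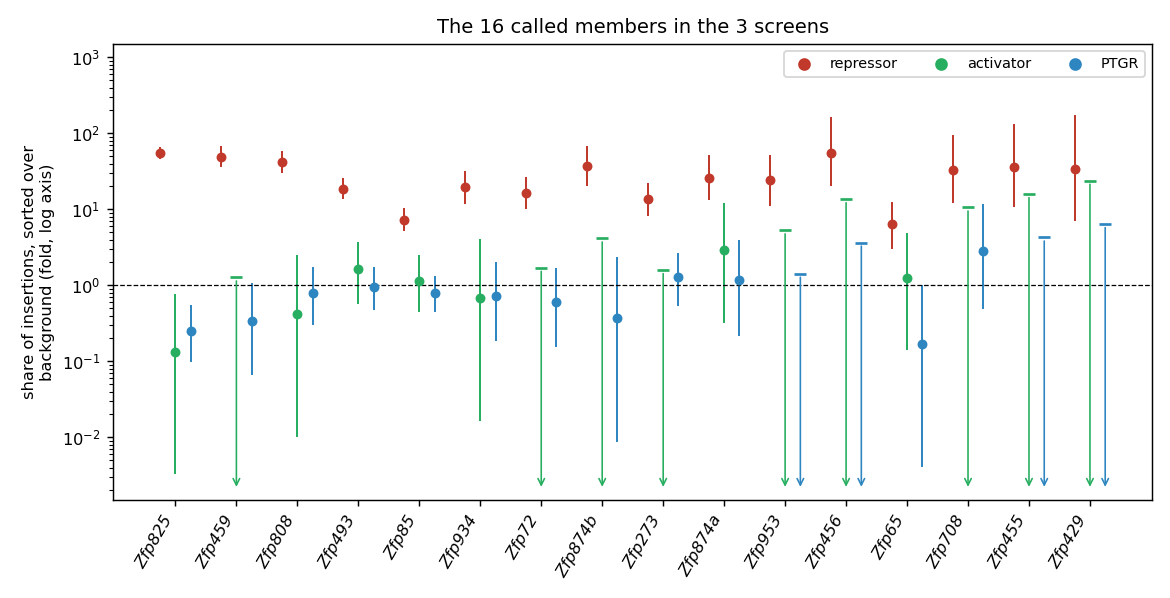
Share of insertions in sorted libraries over the background (fold, log axis) at the 16 hits in the repressor (red), activator (green) and PTGR (blue) screens, with exact 95% intervals and downward arrows from the limit of 3 counts where no sorted insertion was found. The repressor values run from 6.42 to 54.8, and the activator and PTGR intervals or arrows include 1 or lie below it.

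Other groups of genes from the same all-gene test give the scale. In the repressor screen 12 of 91 numbered Zfp genes on chromosome 7 were hits (13.2%), 9 of 44 on chromosome 17 (20.5%) and 19 of 206 on other chromosomes (9.22%), beside 45.7% on chromosome 13. Over all 20409 genes, tested or not, 0.941% were hits. The median number of background insertions was 23 on chromosome 13, 34 on chromosome 7, 18 on chromosome 17 and 16 on other chromosomes. The 7 zinc finger genes on chromosome 13 with another symbol (Rsl1, Rslcan18, Zkscan3, Zkscan4, Zkscan8, Zscan12 and Zscan26) had 7 repressor sorted insertions in all and 0 hits. These groups were not compared by a test. Of 20 genes of the KRAB co-repressor pathway, a list chosen with earlier results of these data known, 13 were hits (65%). Trim28, which KRAB domains bind, counted 331 and 302 in sorted cells against 676 unsorted (log2 odds ratio 4.70 ± 0.08), Setdb1 had 19 and 18 against 25 (5.34 ± 0.37), and the HP1 genes Cbx1, Cbx3 and Cbx5 had log2 odds ratios of 4.52, 5.94 and 4.38. The study flagged Trim28 in this screen as enriched for reversed insertions too, and advises caution with such hits. The histone deacetylase gene Hdac2 and the DNA methylation gene Uhrf1 were tested and not called. Hdac1, Dnmt1, Dnmt3a, Suv39h1 and Suv39h2 had 0 to 2 sorted insertions and were not tested.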

How the data were processed

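Insertion sites of the ORFtag cassette were mapped by the authors in 12 libraries with Trim Galore 0.6.0, Bowtie2 and SAMtools 1.9 on mm10, and each was assigned to the nearest exon downstream among the non-first exons of protein-coding genes (GENCODE vM25). Reads of low mapping quality were removed, so insertions in near-identical copies may be missing. The deposited lists give a position, a strand and a distance in bp per insertion. The deposited screen tables hold the authors' insertion counts for each gene, with libraries added up. The sums computed here equalled the deposited counts at all 35 genes, except for 6 genes in the PTGR sorted libraries, where 13.2% of positions in sorted replicate 2 were listed more than once. All positions of the repressor unsorted libraries were repeated. Repeats were counted once. The log2 odds ratios and p-values of the authors were not used.

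Fisher's exact tests used scipy 1.17.1 with the methods' thresholds, and count models used edgeR 4.0.16 (TMM, genes with at least 10 insertions in all) and DESeq2 1.42.0. The scripts were checked on simulated data. Standard errors beside log2 odds ratios cover counting error, and intervals of folds are exact (Clopper-Pearson). The methods call the 2 libraries of a group biological replicates, and edgeR's p-values measure the spread between them. The positions shared by the repressor sorted replicates were left out only for Fisher's exact test. Their effect on the spread that edgeR saw, also between screens, was not tested. Exact permutation of 2 against 2 libraries cannot give a two-sided p below 0.333. The alternatives were the screen's own background, other count tests, minimums, distances and thresholds, repeats, and a replicate left out. Acceptor windows were read from the RefSeq copy of GRCm38 (mm10). Proteins were translated from GENCODE vM21, and zinc finger motifs were counted by a pattern. KRAB-like stretches were found by local alignment (Biopython 1.88) in the first 120 residues, with a score of at least 60. All hits, Zfp808, the gene with most background insertions and genes with an unadjusted p below 0.05 were named by rule, and the other members by counts and ranges. The members and lists were chosen with earlier results of these data known.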

Additional observations from a re-analysis of the deposited data

Results flagged for a closer look

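The sorted over unsorted change differed between screens, by edgeR's test of the difference itself at an adjusted p below 0.05, at 9 of the 35 genes. As repressor minus activator on the log2 scale, the difference was 10.70 for Zfp459, 9.56 for Zfp273, 8.32 for Zfp72, 6.39 for Zfp825, 5.33 for Zfp808, 3.54 for Zfp493 and 2.97 for Zfp85. Zfp459, Zfp273 and Zfp72 had 0 activator sorted insertions, so their fitted values depend on the prior count and bound nothing. As repressor minus PTGR it was 6.64 for Zfp459, 5.64 for Zfp825, 4.72 for Zfp65, 4.13 for Zfp72, 4.12 for Zfp808, 3.92 for Zfp493, 3.80 for Zfp273, 3.80 for Zfp934 and 3.06 for Zfp85. The median difference over all 12809 genes was -0.14 against the activator and -1.76 against the PTGR screen.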

How the results depend on the processing

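The 16 repressor hits were called again with the screen's own unsorted libraries, with at least 1 sorted insertion, within 100 kb, with every listed row and with positions merged within 10 bp. Within 50 kb 14 were called (without Zfp72 and Zfp808), with at least 10 sorted insertions 14, and at an adjusted p below 0.05 17, with Zfp58 added. DESeq2 called 15. The edgeR test without a block called 0 at an adjusted p below 0.001 (15 members were at least 2-fold higher at an unadjusted p below 0.05), the only alternative to move the count by over 1.5 times. With 1 sorted replicate left out, 13 to 14 genes were called, 13 without replicate 1 and 14 without replicate 2. The labels do not say that the replicate numbers pair the libraries, and deviations of same-numbered libraries from their group means correlated by 0.00372 (repressor), 0.0305 (activator) and 0.172 (PTGR). Shared positions hint at pairs in 2 screens: activator sorted replicates 1 and 2 shared 5.17% and 19.2% of their positions with the unsorted library of the same number and 2.35% and 1.39% with the other, and PTGR ones 19.5% and 6.98% against 0.397% and 1.93%. In the repressor screen they shared 8.50% and 8.72% with the same number and 10.0% and 5.47% with the other. With a replicate block edgeR called 12 members in the repressor screen and 0 in the others, and Zfp184 was lower with an adjusted p of 0.0247, against 0.540 without the block. With the block, the repressor minus PTGR differences of Zfp65 and Zfp934 no longer passed by edgeR (adjusted p 0.118 and 0.0573), and the other 7 differences against each screen did. Own-screen folds within and beyond 20 kb, and those of Zfp825 in the other screens, were added after the data were seen. In the activator and PTGR screens every alternative run gave 0 calls. Depth limits the genes with few background insertions most.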
